A study of Mus musculus with 5 samples.

Results

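The respiratory chain genes described here are the 80 genes, of 20022 with a named probe, whose symbols belong to subunits of mitochondrial complexes I to V. They were picked by a pattern on the gene symbol (Nduf, Sdh, Uqcr, Cox and Atp5 names), after the RefSeq transcript accessions on the array had been matched to symbols. The pattern found 36 genes of complex I, 4 of complex II, 8 of complex III, 15 of complex IV and 17 of complex V. It passes over a few subunits with other names, such as Cox4i1, Cyc1 and Ndufab1, over assembly factors and over the subunits encoded in mitochondrial DNA. The named subunits and the assembly factors are given with the related lists below, and the mitochondrial transcripts were not analysed here. RNA came from natural killer T (NKT) cells, T cells that recognise lipids on CD1d, sorted from mouse thymus as cells positive for CD3e and a CD1d tetramer. The 3 wild-type samples and the 2 IL15ko samples (genotype IL15-/-, no interleukin-15) were all on the C57BL/6 background, and each pooled 10 thymi. The labels name neither age nor sex. They also leave unsaid whether the replicates are separate pools of animals, and the p-values rest on a spread that could be technical only. Each sample was hybridised to 1 Agilent 1-colour array.

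The respiratory chain passes electrons from NADH (complex I, NADH dehydrogenase) and succinate (complex II, succinate dehydrogenase) through coenzyme Q to complex III (the cytochrome bc1 complex), and from there through cytochrome c to complex IV (cytochrome c oxidase), which reduces oxygen. Complexes I, III and IV pump protons, and complex V (ATP synthase) uses their return flow to make ATP. Most subunits are encoded in the nucleus and join a few that are encoded in mitochondrial DNA. Interleukin-15 is known to favour mitochondrial respiration and fatty acid oxidation in memory T cells.

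All values are log2 of the processed spot signal minus the 75th percentile of that array, called the scaled signal, and differences are IL15ko minus wild-type with the moderated standard error of limma. Probes differ in brightness for reasons other than transcript number, so the level of one gene is not set against that of another. Between 33.9% (IL15ko 2) and 49.6% (wild-type 3) of the 55681 probes were well above background, and IL15ko 2 was the dimmest array, with a 75th percentile of 440 intensity units against 885 to 1957 on the others. Wild-type 1 and 2 lay closest together, where the robust SD of the log2 differences over all genes tested was 0.17, against 0.343 to 0.621 for the other pairs. All 9 NKT-cell markers with a probe were well above background on all 5 arrays, among them Cd3e and Zbtb16. Of the double-positive thymocyte markers Rag1, Rag2, Ptcra, Cd8a and Cd8b1, and of the B-cell markers Cd79a, Ms4a1 and Pax5, none was so on any array. Dntt of the first list and Cd79b and Blk of the second were so on all 5 arrays, and Arpp21 of the first on 1. Levels of the NKT-cell markers also differed: Zbtb16 and Slamf6 were higher in IL15ko (limma adjusted p = 0.0161 and 0.0103). Il2rb was below all wild-type values on both IL15ko arrays and did not pass (limma adjusted p = 0.0542). The summed level of the 9 NKT-cell markers, in multiples of the 75th percentile of the array, ran from 67.3 to 75.5 in wild-type and from 58.5 to 61.6 in IL15ko. The summed level of the 6 B-cell markers, in multiples of the 75th percentile of the array, ran from 0.117 to 0.146 in wild-type and from 0.201 to 0.286 in IL15ko. That of 6 macrophage and dendritic cell markers ran from 0.417 to 0.835 against 0.125 to 0.185, and rested on Csf1r, the 1 marker of the list that was well above background on all 5 arrays (scaled signal -1.14, -0.33 and -1.34 against -2.63 and -3.82, limma adjusted p = 0.0509). That of 6 genes listed beforehand as NK and innate lymphoid cell markers ran from 14.6 to 15.9 against 2.78 to 3.64. It rested mostly on Klra8 (scaled signal 3.46, 3.41 and 3.56 against 0.71 and 1.25, limma adjusted p = 0.0085). Klra4 and Klre1 were also lower (limma adjusted p = 0.00941 and 0.00881), and Irf8 did not pass (0.0699). Eomes, of the same list, was well above background on 1 array and Ncr1 on none. Whether the Klra8, Klra4 and Klre1 signal came from NK cells or from the NKT cells themselves was not tested. Genes of the sex chromosomes also differed: the X-inactivation transcript Xist was well above background on 0 of the 3 wild-type arrays and on both IL15ko arrays (limma adjusted p = 0.00559), and Y-linked Eif2s3y had a mean scaled signal of -0.35 in wild-type and -2.33 in IL15ko (adjusted p = 0.00591). Eif2s3y and Ddx3y, also Y-linked, were still well above background on both IL15ko arrays, and Uty and Kdm5d on neither. These differences follow genotype on the 5 arrays, so sex-linked expression and genotype cannot be told apart. The part of the marker and sex-linked differences in the results below was not tested. In sorted cells, fewer cells of a type and less RNA per cell cannot be told apart.

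Of the respiratory chain genes, only Cox7a1 passed the test between NKT cells of the genotypes, and most differences were small. Of the 80 genes, 76 were well above background on all 5 arrays and were tested, and the remaining 4 (Cox6a2, Cox7b2, Cox8b and Cox8c) were so on no array. Over all 11997 genes tested, limma called 7.33% at a Benjamini-Hochberg adjusted p under 0.05, 3.75% as higher and 3.58% as lower in IL15ko. Among the 76 measured respiratory chain genes it called 1 higher, Cox7a1, and 0 lower. At an unadjusted p under 0.05 the counts were 5 higher and 2 lower, or 7 of 76, against 27.5% of all genes tested in both directions. The log2 differences ran from -0.49 to 1.03, with 39 above 0 and 37 below, a median of 0.031 and quartiles at -0.17 and 0.16. Over all genes tested the median was 0.015 and the quartiles were -0.29 and 0.32. Of these 11997 genes, 9759 were well above background on all 5 arrays. Unlike the 76, all genes tested thus include dimmer probes. In a fit of only the 9759 genes limma called 1189. Among the 76 it called 1 higher, again Cox7a1 (adjusted p = 0.0177), and 0 lower. The part of brightness in the other comparisons was not tested. The 95% confidence interval of the difference lay within a 2-fold change in either direction for 70 of the 76 genes, or 92.1%, and for 63.3% of all genes tested. The exceptions included Sdhc, Uqcrc1, Cox6b2 and Cox7a1. For 27 of the 76 genes, or 35.5%, every IL15ko value lay outside the wild-type range on the same side, against 47.2% of all genes tested. In 15 of them IL15ko was higher, where the share over all genes tested was 25.1%, and in 12 it was lower, where that share was 22.1%. With a trended robust prior in limma, which called 12.6% of all genes tested, 3 of the 76 were called.

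**Figure D1:**
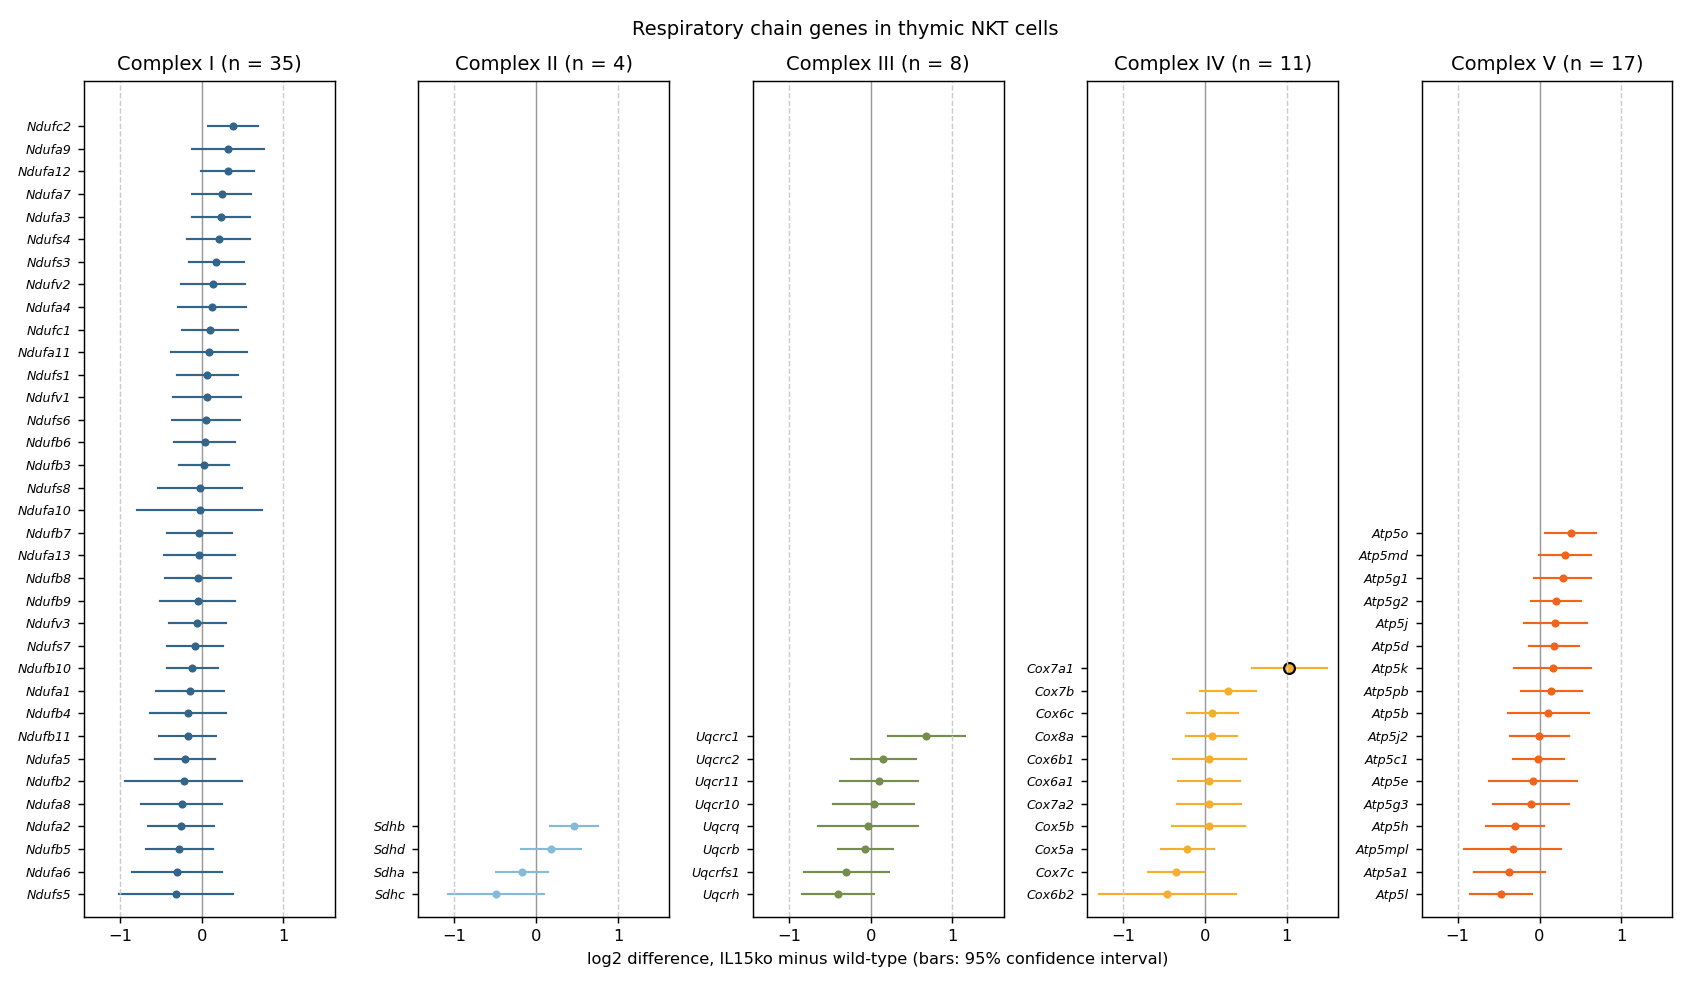
Log2 difference of the measured respiratory chain genes, IL15ko minus wild-type, by complex, with 35 genes drawn for complex I. Points are estimates from 3 wild-type and 2 IL15ko arrays, bars are 95% confidence intervals, dashed lines mark a 2-fold change, and the ringed point is the only gene past the threshold, Cox7a1. The points of all complexes scatter on both sides of 0, between -0.49 and 1.03.

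Complex I, the largest complex, feeds electrons from NADH into the chain. None of its 36 genes passed the test with limma in either direction, and 1 had an unadjusted p under 0.05. Their median log2 difference was -0.026, with 16 genes above 0 and 20 below, and all 36 lay within 0.5 of 0 in either direction. The median was -0.165 without IL15ko 1 and 0.18 without IL15ko 2, so each IL15ko array alone gave another sign.

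The catalytic core of complex I is described first. Ndufv1, which binds NADH and the flavin, had scaled signals of 1.46, 1.54 and 1.53 on the wild-type arrays and 1.78 and 1.37 on the IL15ko arrays. Ndufs1, the largest iron-sulphur subunit, had 0.87, 0.90 and 0.95 against 1.13 and 0.82. In both genes the IL15ko values lay on either side of all wild-type values, and the differences were 0.064 ± 0.17 (SE) and 0.070 ± 0.15. Ndufv2, an iron-sulphur partner of Ndufv1, differed by 0.14 ± 0.15, Ndufs3 by 0.18 ± 0.13, and the iron-sulphur subunits Ndufs7 and Ndufs8, which lie next to the quinone site, by -0.078 ± 0.14 and -0.019 ± 0.20.

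The accessory subunits surround that core, and the genes with the largest differences of the complex were mostly among them. Ndufc2, in the membrane arm, had values of 0.68, 0.68 and 0.56 in wild-type and 1.05 and 0.99 in IL15ko. Both IL15ko values were above all wild-type values, with a difference of 0.38 ± 0.12 (limma adjusted p = 0.125). Ndufa9, which sits near the quinone site, had 0.46, 0.48 and 0.41 against 0.55 and 1.01, a difference of 0.33 ± 0.17 (adjusted p = 0.291). Here the groups did not overlap either, but IL15ko 1 was only just above wild-type. Ndufs5 had 1.97, 1.93 and 1.95 against 2.08 and 1.19, so that only IL15ko 2 lay below wild-type, and the difference of -0.32 ± 0.28 was 0.13 without that array. Ndufa12, Ndufa7 and Ndufa3 were also above all wild-type values on both IL15ko arrays, with differences of 0.32, 0.24 and 0.24. Ndufb5, Ndufa5, Ndufb11 and Ndufb10 were below them, with differences of -0.27, -0.20, -0.17 and -0.11. None of these 7 genes passed the test. A second probe of Ndufa5 had a difference of 0.061, opposite in sign to the brighter one, and a second probe of Ndufv3 had 0.24 where the brighter one had -0.052. The second probe of Ndufb11, well above background on 4 arrays, had -0.76. Ndufa1 and Ndufb11 are X-linked, and Ndufa1 differed by -0.14 ± 0.16. Ndufa4, named for complex I but known as a subunit of complex IV, differed by 0.12 ± 0.17. Counting it with complex IV gave medians of -0.028 for complex I and 0.050 for complex IV.

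Complex II is the one complex that also works in the tricarboxylic acid (TCA) cycle. Of its 4 subunits 2 were above 0 and 2 below, and none passed the limma test, with 1 at an unadjusted p under 0.05. Sdhb, which carries the iron-sulphur clusters, had the tightest values of the whole family. They were 2.40, 2.39 and 2.41 in wild-type and 2.84 and 2.89 in IL15ko. Both IL15ko values were clear of the wild-type range, by a difference of 0.46 ± 0.12 (1.38-fold, 95% interval 1.12 to 1.69, limma adjusted p = 0.0802). Its second probe differed by 0.63, and the difference stayed between 0.41 and 0.55 over 17 alternatives, of which 1 called it. Sdhc, a membrane anchor that helps to bind haem, had 0.18, 0.25 and 0.020 against -0.0065 and -0.67. IL15ko 1 was only just below the wild-type values and IL15ko 2 well below, for a difference of -0.49 ± 0.23 (adjusted p = 0.238), and its second probe differed by -0.17. Sdha, the flavoprotein that oxidises succinate, differed by -0.17 ± 0.12, and its groups did not overlap. Sdhd, the other anchor, differed by 0.18 ± 0.15. The median over the 4 genes was 0.0059.

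The promoter of Sdhb is shown because it belongs to the member with the closest agreement between arrays. It spans chr4:140961021-140961320 on the + strand of GRCm38.p6, from RefSeq, 250 bases before to 50 after the annotated start, with an ETS core (CCGGAAG) in capitals.
Sdhb: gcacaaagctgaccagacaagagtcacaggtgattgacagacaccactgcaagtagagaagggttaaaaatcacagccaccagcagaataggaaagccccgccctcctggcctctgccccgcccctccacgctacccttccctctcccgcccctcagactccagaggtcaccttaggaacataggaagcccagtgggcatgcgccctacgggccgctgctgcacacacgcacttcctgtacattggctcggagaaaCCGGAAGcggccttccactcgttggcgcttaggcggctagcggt

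Complex III hands electrons from coenzyme Q to cytochrome c. None of its 8 genes passed the limma test, 1 had an unadjusted p under 0.05, 4 were above 0 and 4 below, and the median was 0.0029. Uqcrc1, one of the large core proteins, had values of 0.0032, 0.049 and 0.41 in wild-type and 0.71 and 0.96 in IL15ko. Both IL15ko values were above all wild-type values, and wild-type 3 was the nearest to them. The difference was 0.68 ± 0.19 (1.61-fold, 95% interval 1.16 to 2.22, limma adjusted p = 0.0924), between 0.56 and 0.81 over 17 alternatives, of which 1 called it. Its partner Uqcrc2 differed by only 0.16 ± 0.16, with overlapping groups. Uqcrh, the acidic hinge protein next to cytochrome c1, went the other way. It had 3.73, 3.75 and 3.46 against 3.40 and 3.08, both IL15ko values below all wild-type values, for a difference of -0.40 ± 0.17 (adjusted p = 0.209), and its second probe differed by -0.35. Uqcrfs1, the Rieske iron-sulphur protein, had 0.42, 0.26 and 0.69 against 0.37 and -0.049, which overlapped, and differed by -0.29 ± 0.20. The small subunits Uqcrb, Uqcrq, Uqcr10 and Uqcr11 differed by -0.064, -0.032, 0.038 and 0.11. For Uqcrb, Uqcrq and Uqcr10 the probes of the gene differed in sign. In Uqcrq the second probe had 0.40.

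The promoter of Uqcrc1 is shown because the gene had the second largest positive difference of the family, one that did not pass the test. It spans chr9:108936398-108936697 on the + strand of GRCm38.p6, from RefSeq, and both NRF1 cores are in capitals.
Uqcrc1: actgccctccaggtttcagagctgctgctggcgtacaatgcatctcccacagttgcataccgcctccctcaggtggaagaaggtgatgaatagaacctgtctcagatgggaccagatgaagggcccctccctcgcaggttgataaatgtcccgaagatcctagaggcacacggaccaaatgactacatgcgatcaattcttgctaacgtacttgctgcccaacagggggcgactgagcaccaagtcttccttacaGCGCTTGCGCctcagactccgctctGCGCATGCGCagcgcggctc

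Complex IV has tissue-specific isoforms of several subunits, and the only gene of the family that passed the test was one of them. Cox7a1 encodes the isoform of subunit VIIa known from heart and skeletal muscle. Its processed signals, near the lower end of the measurable range, were 55.2, 49.9 and 82.4 intensity units in wild-type and 124 and 47.6 in IL15ko. After scaling the values were -4.37, -4.15 and -4.57 in wild-type and -3.45 and -3.21 in IL15ko. Both IL15ko values were above all wild-type values after scaling, while before it the dim array IL15ko 2 had the lowest signal. The difference was 1.03 ± 0.18 (2.04-fold, 95% interval 1.49 to 2.80, limma adjusted p = 0.0354), and the gene has 1 probe. The difference stayed between 0.87 and 1.15 over 17 alternatives, but the call was kept in only 8 of them, and in none of the 5 fits that left out 1 array (adjusted p from 0.0558 without wild-type 3 to 0.152 without IL15ko 2). With wild-type 1 and 2 averaged the adjusted p was 0.0994, and after normexp correction (offset 50) it was 0.277. The share of genes called higher over all genes tested was 3.75%, and 1 of 11 measured genes of complex IV was called.

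The ubiquitous counterpart Cox7a2 did not pass the test. It had 1.27, 1.22 and 1.23 in wild-type and 1.47 and 1.11 in IL15ko, one value above and one below the wild-type range, and a difference of 0.047 ± 0.15 (interval -0.34 to 0.44). The promoters of this pair are shown because the isoforms take the same place in the complex and only one of them passed the test. Cox7a1 lies at chr7:30183921-30184220 on the + strand and Cox7a2 at chr9:79759804-79760103 on the - strand of GRCm38.p6, both from RefSeq. Neither window holds the NRF1, ETS or YY1 core or the TATA box searched for, so all letters are in lower case.
Cox7a1: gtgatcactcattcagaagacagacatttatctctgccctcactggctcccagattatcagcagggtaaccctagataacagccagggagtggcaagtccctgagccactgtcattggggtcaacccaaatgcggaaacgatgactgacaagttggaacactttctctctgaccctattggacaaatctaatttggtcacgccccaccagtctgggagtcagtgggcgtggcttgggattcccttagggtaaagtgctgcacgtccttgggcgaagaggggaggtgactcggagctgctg
Cox7a2: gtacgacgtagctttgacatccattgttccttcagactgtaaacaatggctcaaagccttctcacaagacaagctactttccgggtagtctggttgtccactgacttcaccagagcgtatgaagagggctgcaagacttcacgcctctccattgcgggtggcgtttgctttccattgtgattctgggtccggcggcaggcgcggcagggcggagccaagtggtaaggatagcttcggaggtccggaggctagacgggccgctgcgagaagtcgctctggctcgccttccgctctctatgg

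Among the other subunits of complex IV with muscle or germline isoforms, the ubiquitous form was measured throughout. Cox6a1 differed by 0.048 ± 0.15, Cox6b1 by 0.052 ± 0.18, Cox8a by 0.081 ± 0.12 and the X-linked Cox7b by 0.28 ± 0.14. Of these, only Cox7b had groups that did not overlap, with 2.45, 2.44 and 2.59 in wild-type and 2.86 and 2.68 in IL15ko (limma adjusted p = 0.252). The isoforms Cox6a2 and Cox8b, known from muscle, and Cox7b2 and Cox8c, known from testis, had no array with a signal well above background, so no difference is given. Cox6b2, also known from testis, was well above background on all 5 arrays, with -2.92, -2.89 and -3.82 against -3.51 and -3.84. Wild-type 3 lay with the IL15ko arrays, and the difference of -0.46 ± 0.33 had an interval from -1.30 to 0.38. Cox7c, a small subunit of the membrane part, had 1.66, 1.499 and 1.53 against 1.29 and 1.11, both IL15ko values below wild-type (-0.36 ± 0.14, adjusted p = 0.169), and its second measured probe differed by -0.24. Cox5a, which faces the matrix, was likewise lower on both IL15ko arrays (-0.22 ± 0.13), whereas Cox5b differed by 0.044 ± 0.18 and Cox6c by 0.089 ± 0.12. The median over the 11 genes was 0.048, and 8 of them were above 0.

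Complex V makes ATP. None of its 17 genes passed the limma test, 2 had an unadjusted p under 0.05, and all 17 had a confidence interval within a 2-fold change. Their median was 0.11, with 9 genes above 0 and 8 below. It lay between 0.047 and 0.16 in the alternatives that kept all arrays, apart from the replicate block (0.044). Without IL15ko 1 it was -0.069. In the catalytic head, the alpha subunit gene Atp5a1 had 2.57, 2.50 and 2.77 in wild-type and 2.42 and 2.07 in IL15ko. Both IL15ko values were below wild-type, by -0.37 ± 0.17 (adjusted p = 0.234). The beta subunit gene Atp5b, whose product pairs with alpha, had 3.63, 3.56 and 3.96 against 4.002 and 3.65, which overlapped (0.11 ± 0.19). The gamma, delta and epsilon subunit genes Atp5c1, Atp5d and Atp5e differed by -0.017 ± 0.12, 0.17 ± 0.12 and -0.081 ± 0.21.

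The genes for the stalk and the membrane part of complex V had values on both sides of wild-type. Atp5o, which encodes the stalk protein that holds the head in place, had 0.62, 0.63 and 0.68 in wild-type and 1.09 and 0.95 in IL15ko, both above wild-type (0.38 ± 0.12, limma adjusted p = 0.128). Atp5l, which encodes subunit g in the membrane, had 2.64, 2.64 and 2.53 against 2.28 and 1.98, both below wild-type (-0.47 ± 0.15, adjusted p = 0.122). All 5 probes of Atp5l were lower in IL15ko, with differences from -0.47 to -0.31. Atp5h, for stalk subunit d, was also below wild-type on both arrays (-0.30 ± 0.14), and Atp5md, for a small membrane subunit, above it (0.31 ± 0.12). The proton-carrying c subunit is made from Atp5g1, Atp5g2 and Atp5g3, which encode the same mature protein. Atp5g1 and Atp5g2 were above all wild-type values on both IL15ko arrays (0.28 ± 0.14 and 0.20 ± 0.12), and Atp5g3 overlapped (-0.11 ± 0.18). Atp5pb, Atp5j, Atp5k and Atp5j2 differed by 0.14, 0.19, 0.16 and -0.0034, and Atp5mpl by -0.33 ± 0.23. RefSeq lists 12 pseudogenes with names of these families. The probe sequences were not used here, and a probe may also bind copies of its gene.

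**Figure D2:**
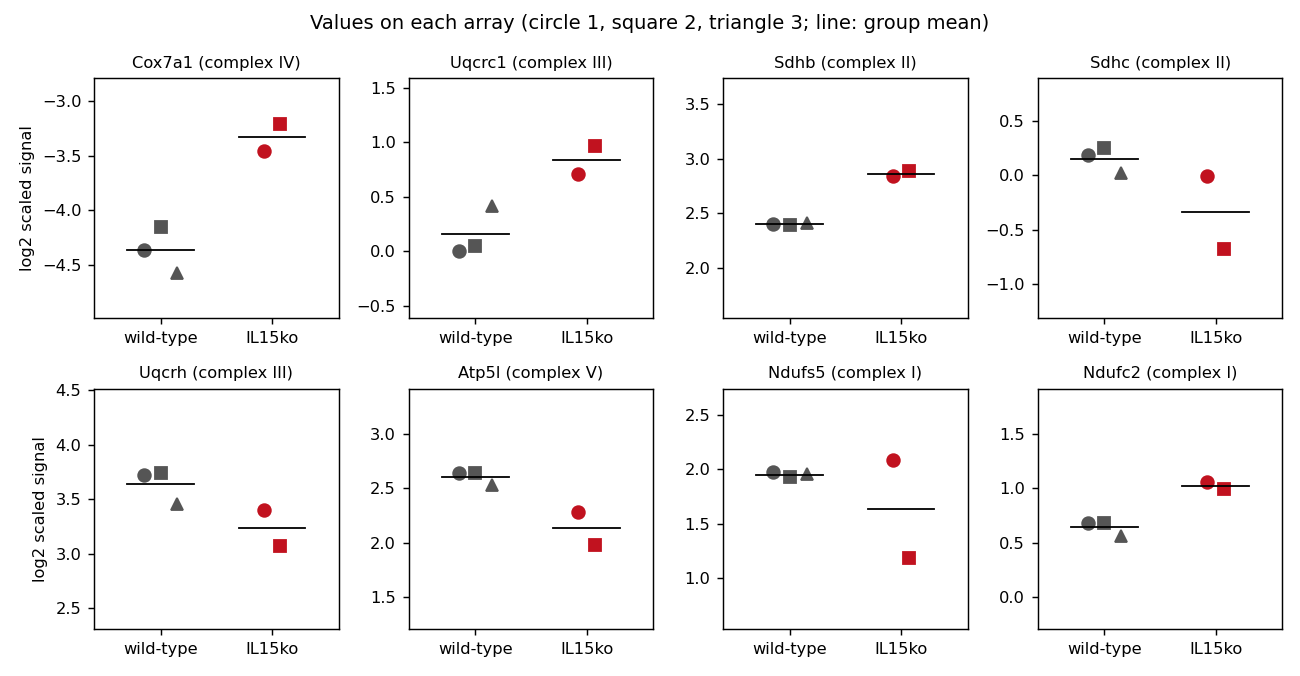
Scaled signal (log2) of 8 respiratory chain genes on each array, wild-type in grey and IL15ko in red, with group means as lines and the same axis length in every panel. Cox7a1 is higher in IL15ko by 1.03, the Sdhb means lie 0.46 apart (not past the threshold), and IL15ko 2 lies -0.89 from IL15ko 1 for Ndufs5.

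The 2 IL15ko arrays lay apart from each other over most of the genes. IL15ko 2 was below IL15ko 1 in 71 of the 76 genes, by a median of -0.29, where over all genes tested 54.6% were below, by a median of -0.043. By complex these were 35 of 36, 3 of 4, 7 of 8, 10 of 11 and 16 of 17 genes. The exceptions were Ndufa9, Sdhb, Uqcrc1, Cox7a1 and Atp5g2. The median of complex I relative to the wild-type mean was 0.18 on IL15ko 1 and -0.165 on IL15ko 2, while the 3 wild-type arrays lay between -0.012 and 0.017. For complex III the IL15ko values were 0.24 and -0.17, for complex IV 0.19 and -0.13, for complex V 0.15 and -0.069, and for complex II 0.051 and -0.039. In all 5 complexes the 2 IL15ko values thus lay on either side of all wild-type values, in complex II only just, where wild-type ran from -0.036 to 0.044. With cyclic loess normalization 68 of 76 genes were lower on IL15ko 2, with a median of -0.22, against 49% of all genes tested and a median of 0.0086. With quantile normalization 69 were lower, with a median of -0.23, against 55.1% and a median of -0.049. IL15ko 2 was also the dimmest array, and the part of this in the split was not tested. Genes of the cytosolic ribosome had a median of -0.12 and those of the mitochondrial ribosome one of -0.31 between the same arrays, with 67 of 77 of the latter lower on IL15ko 2. TCA cycle genes had a median of 0.0007, with 9 of 18 lower.

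**Figure D3:**
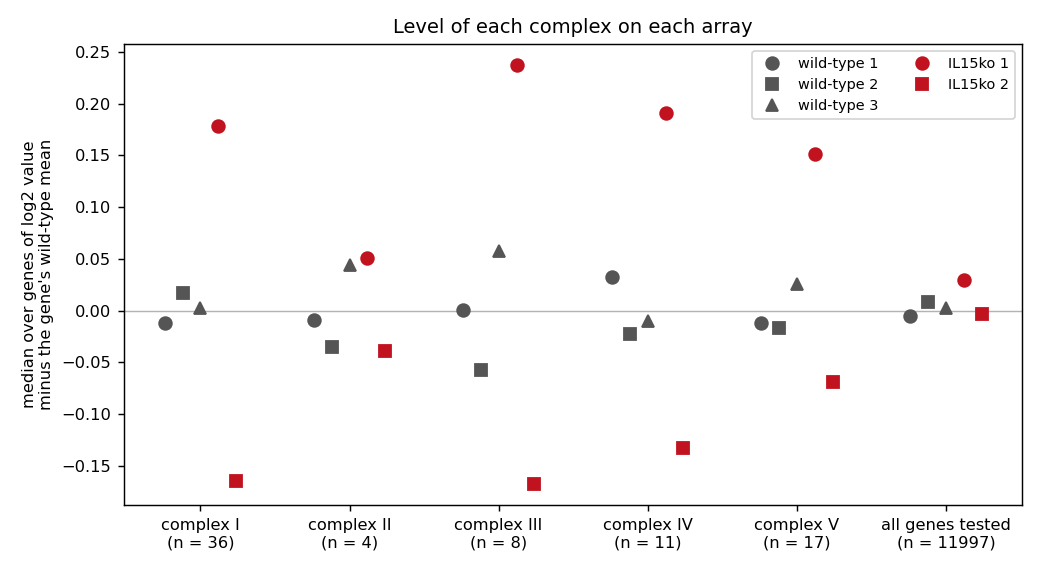
Median over the genes of each complex of the log2 value minus the wild-type mean of the gene, on each array, beside the same over all 11997 genes tested. The wild-type arrays lie between -0.058 and 0.057, and in each complex IL15ko 1 lies above and IL15ko 2 below the wild-type arrays, by little in complex II.

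Within the groups the median SD was 0.15 over the members and 0.20 over all genes tested, which include dimmer probes. The median standard error was 0.16 against 0.18. Between wild-type 1 and 2 the robust SD over the members was 0.068, between wild-type 1 and 3 it was 0.15, and between the IL15ko arrays 0.21. It is taken around the median difference and leaves out a shift that the members share. That median was -0.0035, 0.019 and -0.29 for these 3 pairs. The differences between members of 1 complex, such as between Atp5o and Atp5l, were not tested.

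Related genes, on lists drawn up from general knowledge, are read against all genes tested, of which 3.75% were called higher, 3.58% lower, and 27.5% had an unadjusted p under 0.05. Of 6 measured subunits and regulators outside the naming pattern none passed the limma test (1 had an unadjusted p under 0.05), with a median of 0.17. Atpif1, which encodes the inhibitor of ATP synthase, differed by 0.57 ± 0.16 (adjusted p = 0.0969) and Cox7a2l, a supercomplex factor, by -0.34 ± 0.14 (adjusted p = 0.187). Cyc1, the cytochrome c1 of complex III, differed by 0.29 ± 0.20, Cox4i1, a subunit of complex IV, by 0.046 ± 0.14, and Ndufab1, the acyl carrier subunit of complex I, by 0.29 ± 0.19. Of 44 assembly factors 1 was called higher and 0 lower, with a median of 0.091. It was Coa7, a cytochrome c oxidase assembly factor, with -4.74, -4.30 and -4.50 in wild-type and -3.33 and -3.35 in IL15ko, clear of each other. Its processed signals, near the lower end of the measurable range, were 42.8, 44.9 and 86.3 intensity units in wild-type and 135 and 43.1 in IL15ko. Before scaling IL15ko 2 thus lay within the wild-type range. Its difference was 1.17 ± 0.17 (2.26-fold, adjusted p = 0.0233), and the call was kept in 8 of 17 alternatives and in 0 of the 5 that left out 1 array (adjusted p from 0.0503 without wild-type 3 to 0.106 without IL15ko 2). After normexp correction (offset 50) the adjusted p of Coa7 was 0.23. Of 17 mitochondrial carriers and porins 1 was called higher and 0 lower, with a median of 0.17. It was Slc25a13, an aspartate and glutamate carrier, with -4.04, -4.27 and -4.15 against -3.15 and -2.92, again clear of each other (1.12 ± 0.15, 2.17-fold, adjusted p = 0.0203). Slc25a13 was also dim, with processed signals of 69.2, 45.9 and 110 in wild-type and 153 and 58.2 in IL15ko, and with normexp its adjusted p was 0.171. It was called in 9 of 17 alternatives and lost without wild-type 1, wild-type 2, IL15ko 1 or IL15ko 2 (adjusted p = 0.0905, 0.0855, 0.0524 and 0.0885). The uncoupling protein genes Ucp2 and Ucp3 differed by 0.79 and 0.73 (adjusted p = 0.0553 and 0.0838), and the assembly factors Nubpl and Uqcc3, for complexes I and III, by -0.48 and 0.44. None of these 4 passed the test, and of the 2 probes of Ucp3 only 1 was well above background on 2 or more arrays.

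The fuel pathways that feed the chain had no called gene. Of 18 TCA cycle genes 14 were above 0, with a median of 0.12 and 2 at an unadjusted p under 0.05 by limma. Dlat, a pyruvate dehydrogenase subunit, differed by -0.56 ± 0.14 (adjusted p = 0.0822) and Idh3a, of isocitrate dehydrogenase, by 0.45 ± 0.14 (adjusted p = 0.118). Of 16 fatty acid oxidation genes 3 had an unadjusted p under 0.05, with a median of 0.039. Echs1 and Hadha, enzymes of the oxidation spiral, differed by 0.42 ± 0.12 and 0.48 ± 0.14 (adjusted p = 0.0959 and 0.0989). Cpt1a, the carnitine transferase at the entry of the pathway, named for its known link to interleukin-15, had -1.84, -1.73 and -1.67 against -1.65 and -1.67, a difference of 0.088 ± 0.13 with an interval from -0.23 to 0.41. Of 15 electron carriers and coenzyme Q enzymes 2 had an unadjusted p under 0.05, with a median of 0.073, and Coq7, a hydroxylase of coenzyme Q synthesis, differed by 0.64 ± 0.13 (adjusted p = 0.053), and Coq4, of the same pathway, by 0.44. Of 21 regulators of mitochondrial biogenesis 3 had an unadjusted p under 0.05, with a median of 0.048, and Tfam, which maintains mitochondrial DNA, differed by -0.17 ± 0.12. Gabpb1 and Gabpb2, partners of Gabpa in the factor GABP, differed by 0.56 and -0.53. Of 77 mitochondrial ribosome genes 0 were called and 8 had an unadjusted p under 0.05, with a median of 0.072, and Mrps27 and Mrpl1 differed by 0.75 and -0.48. Of 80 cytosolic ribosome genes 0 were called and 14 had an unadjusted p under 0.05, with 66 below 0 and a median of -0.19. In 44 of the 80 both IL15ko values were below all wild-type values, where that share was 22.1% over all genes tested, and Rpl14 and Rpl9 differed by -0.58 and -0.48. All genes tested had a median of 0.015, and 7.33% of them were called.

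**Figure D4:**
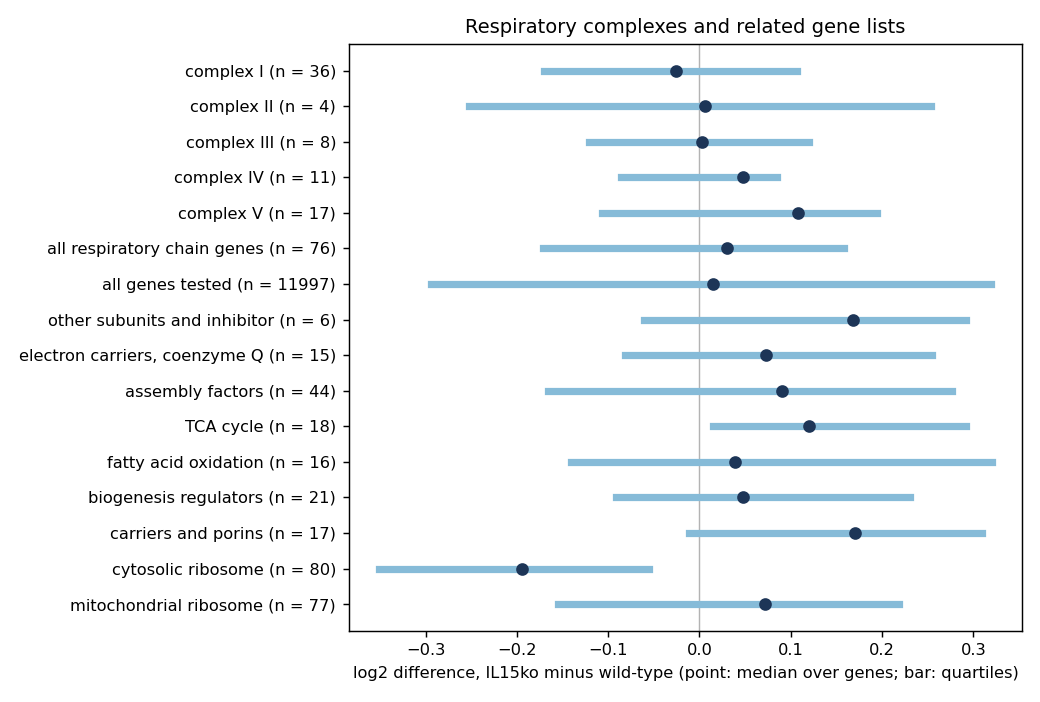
Median (point) and quartiles (bar) of the log2 difference, IL15ko minus wild-type, over the measured genes of each complex and each related list, beside all genes tested. The medians of the 5 complexes lie between -0.026 and 0.11, that of all genes tested at 0.015 and that of the cytosolic ribosome at -0.19.

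The promoters of the family were searched for letters that the naming rule did not use. RefSeq promoter windows of 300 bases were matched for 67 of the 80 genes. On both strands, the NRF1 core was found in 17 of them (25.4%), against 11.2% of 9636 tested genes with a window and 5.19% of all 27025. NRF1 is a factor known for driving nuclear genes of respiration. The core CCGGAAG of ETS factors, which include the respiratory factor GABP, was also found in 17 (25.4%), against 20% and 9.93%. The YY1 core AAGATGGC was found in 10 (14.9%), against 5.24% and 3.19%, and the TATA box TATAAA in 8 (11.9%), against 9.54% and 15.7%. The NRF1 core stood in 6 of 15 windows of complex V, 7 of 32 of complex I, 2 of 3 of complex II, 1 of 5 of complex III and 1 of 12 of complex IV. A match describes the letters of the window and shows no binding. Nrf1 itself differed by 0.20 ± 0.22, Gabpa by 0.28 ± 0.17 and Yy1 by -0.29 ± 0.12 (limma adjusted p = 0.583, 0.342 and 0.203).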

How the data were processed

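Expression was measured in 5 samples of sorted thymic NKT cells, grouped by the labels. The deposited scanner output gives 1 intensity per spot on a linear scale, made with Agilent Feature Extraction 10.7.1.1 per the file headers. Its processed signal has had background removed. Limma is named in the submitters' processing notes. A second deposited table, of the authors' values, has intensities that equal, for bright spots, the spot median minus the background median plus a constant per array (7.36 to 17.2). It has a linear scale and column medians from 15.7 to 26, and the setting behind the constant stays unknown.

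Control and outlier spots were left out and spots of 1 probe averaged. No probe was saturated. Under 50% of probes were detected, so scaling used the 75th percentile of the 18519 probes that passed the scanner's background flag (well above background, deposited with each spot) on every array. RefSeq accessions were matched without versions to GRCm38.p6, naming 26425 of 55681 probes with 1 symbol and leaving 29256 unnamed. Each accession took the first gene that listed it, so probes with several symbols were not looked for. Each gene had its brightest probe. Of 20022 genes, 11997 passed that flag on 2 or more arrays and entered 1 fit by genotype alone (limma 3.58.1, lmFit and eBayes, under R 4.3.3, with 3 residual and 2.28 prior degrees of freedom), with Benjamini-Hochberg adjustment over all of them at a threshold of 0.05. The number of arrays limits the precision. With 3 arrays against 2 an exact permutation test of 1 gene cannot go below p = 0.1. The members, the related lists and the markers were chosen with earlier results of these data known. Named are called genes, core subunits and isoform pairs, up to 2 largest differences per complex and direction, probes that disagree, undetected genes and, per list, genes with the smallest p. Cyc1, Cox4i1, Ndufab1, Cpt1a, Tfam, Nrf1, Gabpa and other genes were added for their role. Normexp used the median signals, in place of the mean signals planned. The values of 1 gene of complex I enter the counts and medians and are not reported here.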

Additional observations from a re-analysis of the deposited data

How the results depend on the processing

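The 17 alternatives covered scaling, background correction, the authors' value table, the filter, the probe rule, the variance prior, the replicates and a replicate block. Over all genes tested, the number called (879) was 1 with normexp and an offset of 50, 3 without the filter on dim probes, 101 with wild-type 1 and 2 averaged, 1517 with a trended robust prior (12.6% of genes), and from 9 to 783 when 1 array was left out. The number of respiratory chain genes called higher (1) was 0 with normexp, 0 without the filter, 0 with wild-type 1 and 2 averaged, 3 with the trended robust prior (Cox7a1, Sdhb and Uqcrc1) and 0 in every fit without 1 array. The number called lower was 0 in all of them. The replicate numbers of the labels do not name shared animals or batches. Deviations of same-numbered arrays from their group means correlated at -0.129 and 0.209. With 2 IL15ko arrays these deviations mirror each other, so the correlations cannot decide whether the numbers mark pairs. With the number as a replicate block, 379 genes and 0 respiratory chain genes were called. The medians of complexes I to V were 0.012, 0.064, -0.021, 0.072 and 0.044. Wild-type 3 has no IL15ko array of its number, so the block takes it out of the differences. These medians are therefore those of the fit without wild-type 3.

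In all alternatives that kept every array, the medians of the 5 complexes stayed within 1 SD between arrays of the main value. That SD, from 0.085 for complex II to 0.15 for complex I, was larger than the median of each complex. A median could thus change sign and still lie within it. Signs near 0 turned: the median of complex I ran from -0.056 to 0.011, and was 0.012 with the replicate block. Leaving out 1 array moved complex I between -0.165 and 0.178, complex III between -0.168 and 0.238, complex IV between -0.133 and 0.191 and complex V between -0.069 and 0.152. Without the filter the median of all genes was 0.24. With normexp it was 0.22, and the complexes lay from -0.27 to -0.16 relative to it. In 40 of 76 genes the sign was the same in all 17 alternatives (24 above 0, 16 below). Medians of the related lists were added after seeing the data, and assembly factors (-0.011 without IL15ko 1), biogenesis regulators (-0.038 without IL15ko 2) and the mitochondrial ribosome (-0.075 without IL15ko 1) changed sign. The planned fit without Atp5s and Atp5sl was not run, since neither symbol is among the members. The dim array IL15ko 2 limits what can be said of small differences.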
